A study of Spinacia oleracea with 12 samples.

Results

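Root and leaf of spinach (Spinacia oleracea, cultivar Banjo) were compared in plants supplied with high N. The comparison used 6 of the 12 RNA-seq libraries of the study, 3 from root and 3 from leaf, chosen by treatment and tissue alone. The plants of these 6 libraries were 6 weeks old, grew in a Turface-based medium and received 200 ppm N as calcium nitrate. The other 6 libraries came from root and leaf of plants at 50 ppm N (low N), to which calcium chloride was added to equalise calcium, and they were used here only to ask whether the difference between the tissues depended on N. The titles of the libraries set the groups, because the tissue or treatment entries of some sample records differed from the titles. Records of high N root were among these. The samples of a group came from 3 independent plants, and the sources used here do not state which root and leaf belonged to the same plant. Leaf and root are whole organs with many cell types, so fewer cells of a type and less RNA per cell cannot be told apart.

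In leaves, the chloroplast harvests light with chlorophyll-binding antenna proteins and the photosystems, and the sugars made there are exported to the root. The root takes up nitrate and ammonium with dedicated transporters, fixes part of the N into glutamine, glutamate and asparagine, and seals its inner cell layers with lignin and suberin, the polymers of the Casparian strip and the endodermis. Stomata are pores of the leaf epidermis, while class III peroxidases, many of which are expressed in roots, act on cell wall phenolics.

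Expression was measured as FPKM, the fragments on a gene normalised for its length and for the library's total. From 15627994 to 18281695 fragments per library were assigned to genes. Values below are FPKM scaled between the 6 libraries by the median of ratios, with factors of 0.75 to 0.883 in leaf and 1.2 to 1.23 in root, and the log2 difference of a gene is the mean of log2(scaled FPKM + 1) in root minus that in leaf. Adding 1 shrinks the difference of weakly expressed genes. The 100 strongest genes held 26.0 to 32.4% of the fragments in leaf and 17.9 to 18.9% in root. For the 10 strongest genes the tissues overlapped, at 5.72 to 8.13% in leaf and 7.08 to 7.89% in root. Of all genes, 15831 to 16236 per library reached 1 FPKM in leaf, and 17449 to 17714 did in root. Without scaling, the median log2 difference of all genes moved from 0.04 to 0.52, so directions of small differences are relative to that scaling.

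The labelled tissues were checked against marker lists. The 19 genes of photosynthesis and chlorophyll summed to 27438 to 39722 scaled FPKM in the leaf libraries and to 180 to 338 in the root libraries, and each of them had fragments in at least 1 root library, so the tissues of the titles were borne out by these genes, while the markers say nothing of the N supply. The 26 class III peroxidases summed to 617 to 875 in root and to 67.4 to 93.1 in leaf, with 8 of them at 0 in all leaf libraries. The 29 genes of suberin, lignin and the Casparian strip summed to 1892 to 2918 in root and 302 to 485 in leaf, and 5 were at 0 in all leaf libraries. For the 104 other chloroplast proteins the sums were 8606 to 9228 in leaf and 2873 to 3704 in root. The 26 nitrate and ammonium transporters and related channels summed to 344 to 467 in leaf and 536 to 779 in root, and the 14 root development regulators to 43.5 to 69.7 and 76.0 to 84.7. The 8 stomatal genes went against their label, with sums of 72.1 to 95.2 in leaf and 162 to 309 in root, of which a single aspartic protease, described below, held 159 to 305 in root.

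Of 18247 genes with a mean of at least 1 FPKM over the 6 libraries, 10044 (55.0%) differed between root and leaf at a Benjamini-Hochberg adjusted p below 0.05 (limma, 3 libraries against 3). They divided nearly evenly, with 5260 genes (28.8%) higher in root and 4784 (26.2%) higher in leaf. On the FPKM as deposited 12337 genes were called and root took 74.7% of them, against 52.4% after scaling. A log2 difference of at least 2, called 4-fold here, was found for 1797 genes higher in root (9.85%) and 1769 higher in leaf (9.69%). The largest sizes were more often on the leaf side: 90 called genes had a log2 difference of -8 or lower and 43 of 8 or higher, and beyond 10 there were 39 in leaf and 8 in root. All root libraries lay above all leaf libraries for 6200 genes (34.0%), and all leaf libraries above all root libraries for 5640 (30.9%). Among the tested genes, 132 were at 0 in all root libraries and 446 in all leaf libraries. Such genes passed the filter only through the tissue that expressed them, so their difference was fixed by the filter.

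**Figure D1:**
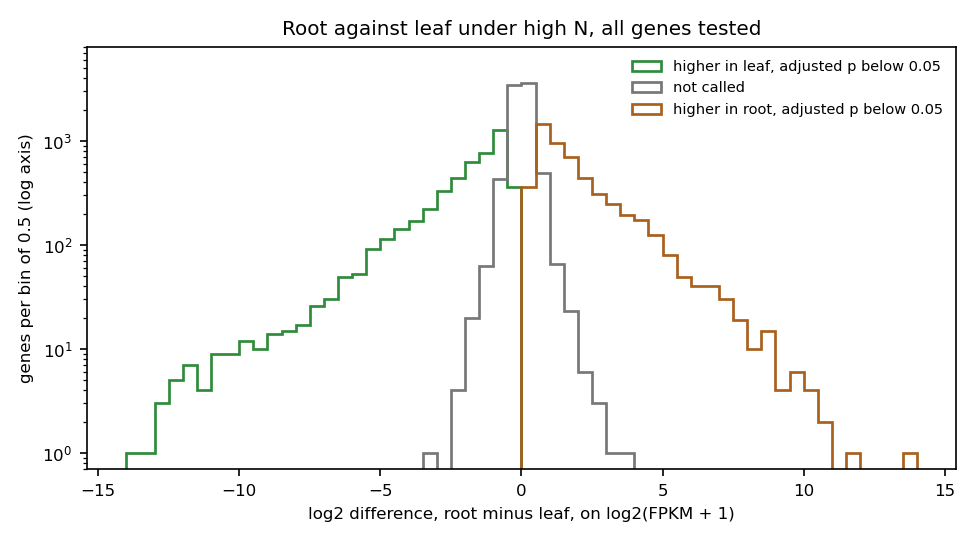
Number of genes (log axis) in bins of 0.5 of the log2 difference between root and leaf under high N, for the 18247 genes tested. Outlines separate the 4784 genes called higher in leaf, the 5260 called higher in root and those not called, and the leaf outline holds more genes beyond 8.

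The extremes of the whole table had no usable name. Spo05786 reached 21702, 16293 and 20444 scaled FPKM in the root libraries and 0, 0.958 and 0.475 in the leaf libraries, a log2 difference of 13.73 ± 0.26 (SE, adjusted p = 2.7e-07). Spo02033 followed at 4029 ± 1437 (SD, n = 3) in root and 0.215 ± 0.163 in leaf. On the other side Spo06839 measured 12976, 24557 and 20964 in leaf and 0.401 to 0.845 in root, where 2 to 4 fragments were counted in each library, and its log2 difference was -13.52 ± 0.25. Spo21477 had 11781 ± 4149 in leaf and 0.339 ± 0.341 in root.

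Gene names and groups below come from Swiss-Prot matches (BLAST E-value of at most 1e-10) that the study's lists of N-responsive genes pair with the identifiers. Those lists name 1647 genes, of which 1494 were tested, and 73.8% of the tested ones differed between the tissues, against 55.0% of all genes. By direction, 45.2% of the tested genes with a name were higher in root and 28.6% in leaf (median log2 difference 0.48), and the counts of each group are to be read against these shares. The study chose the listed genes on these same samples for a response to N, which touches the tissue difference: a gene listed as higher in root under high N has a raised root level here. The number of tested members that each group took from that list, the high N root list, is therefore given. The other lists act likewise: a gene on the high N leaf list has a raised leaf level here, and one on a low N list a lowered level. The number from the high N leaf list is added where it made up a large part of a leaf-leaning group. No group is independent evidence of its direction.

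**Figure D2:**
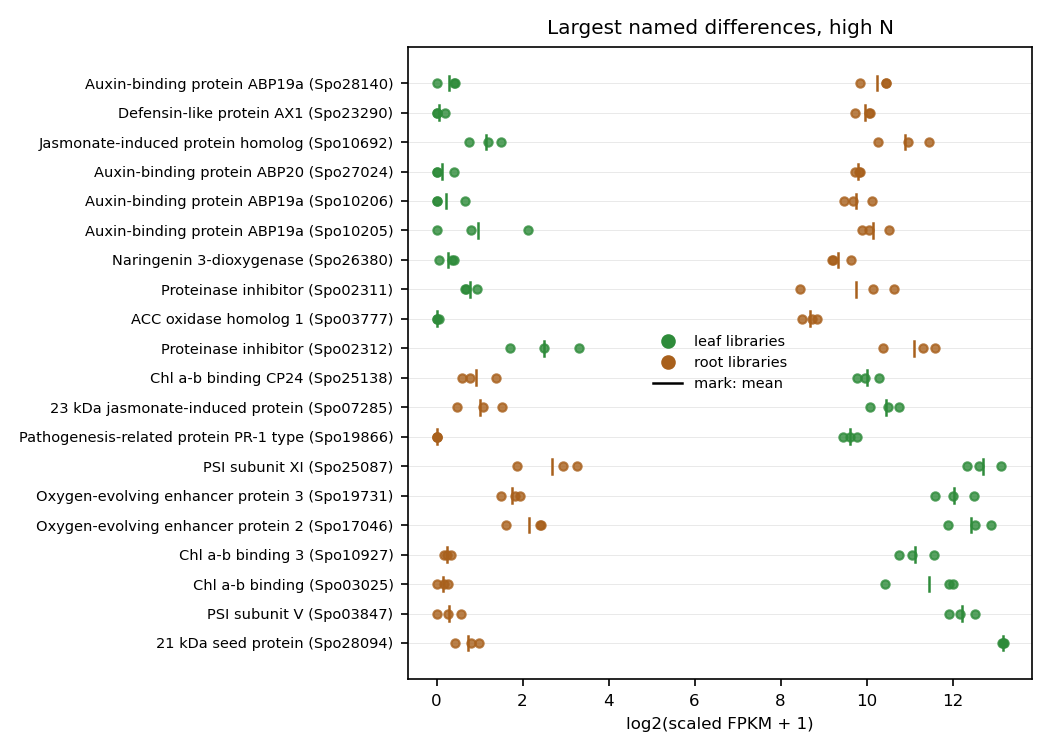
Scaled FPKM on a log2(FPKM + 1) axis in each of the 3 leaf and 3 root libraries under high N (points) with the group mean (vertical mark), for the 10 genes with a name most shifted to leaf and the 10 most shifted to root. The tissues do not overlap for any of the 20 genes, since absence of overlap was part of how they were chosen.

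Photosynthesis genes separated the tissues most clearly on the leaf side. Of the 19 in the list, all tested, 18 were higher in leaf and 1 in root, with a median log2 difference of -5.69 against 0.04 for all genes, and 16 were at least 4-fold higher in leaf. The high N root list had supplied 12 of them. For photosystem I reaction center subunit V (Spo03847), a small subunit of photosystem I, 3874, 5877 and 4635 scaled FPKM were measured in leaf and 0.491, 0 and 0.211 in root, a log2 difference of -11.92 ± 0.21 (adjusted p = 2.3e-07). A chlorophyll a-b binding protein of the light-harvesting antenna (Spo03025) varied more between the leaf libraries, at 4143, 1384 and 3868, but was at most 0.199 in root. Another antenna protein, Spo10927, had 2279 ± 667 in leaf and 0.194 ± 0.0718 in root, and the antenna protein CP24 (Spo25138) 1041 ± 190 and 0.943 ± 0.583. Spo03025 and Spo10927 were thus close to undetected in root, with 0 to 4 fragments in each root library, while CP24 was low but counted, with 16 to 53.

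Subunits of the oxygen-evolving complex, which splits water at photosystem II, and subunit XI of photosystem I were also low but counted in root. Oxygen-evolving enhancer protein 2 (Spo17046) had 3787, 7648 and 5876 scaled FPKM in leaf and 4.31, 4.40 and 2.05 in root, the latter from 70, 70 and 31 fragments. Oxygen-evolving enhancer protein 3 (Spo19731) had 4332 ± 1383 and 2.40 ± 0.515, and subunit XI (Spo25087) 6797 ± 1928 and 6.00 ± 3.06. The leaf mean was 1133 to 1808 times the root mean for these 3 genes, which the study listed as higher in root under high N than under low N. The single photosynthesis gene called higher in root was the thylakoid lumenal protein TL20.3 (Spo04636), at 1.43, 2.54 and 3.68 in leaf and 9.05, 7.66 and 5.01 in root (log2 difference 1.23, adjusted p = 0.012), a small difference of a weakly expressed gene.

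Among 100 tested members of 104 other proteins named as chloroplastic, 60 were higher in leaf and 25 in root (median -1.53). The high N root list had supplied 28 of them and the high N leaf list 38. The ribosome-binding factor PSRP1 (Spo22364), which binds chloroplast ribosomes, was the most leaf-shifted, at 803, 820 and 847 scaled FPKM in leaf and 3.32, 3.19 and 2.33 in root. Next was a chloroplast phospholipase A1, Igamma3 (Spo15694), with 90.7 ± 24.2 in leaf and 0.0289 ± 0.0192 in root. The chloroplast name did not fix the direction. A probable phytol kinase (Spo14939) had 4.72, 3.89 and 6.74 in leaf and 407, 373 and 167 in root, a log2 difference of 5.62 ± 0.36 (adjusted p = 2.3e-05), and all its root libraries lay far above all its leaf libraries. The chaperone dnaJ 11 (Spo08372) was abundant in both tissues, at 2644 ± 403 in leaf and 418 ± 46.6 in root.

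Of the 8 genes tied to stomata, 5 were tested, with 3 higher in leaf and 2 in root, and 0 were from the high N root list. FAMA (Spo03472), the transcription factor that commits cells to the guard cell fate in Arabidopsis, measured 3.84, 3.25 and 5.54 in leaf and at most 0.0765 in root. The ABC transporter ABCG22 (Spo16795), which affects stomatal regulation in Arabidopsis, had 71.1 ± 11.6 in leaf and 0.104 ± 0.0263 in root. Against the group, the gene named Protein ASPARTIC PROTEASE IN GUARD CELL 2 (Spo21763) had 159, 172 and 305 in root and 1.64 to 2.59 in leaf, a log2 difference of 6.06 ± 0.27, and it carried most of the group's summed level in root. The secreted protease named for the response to CO2 (Spo20330) was higher in root at 1.01 (adjusted p = 0.022), and its call was lost on leaving out leaf library 1 or 3 (adjusted p = 0.06 in each).

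Light, clock and flowering genes leaned to leaf, with 11 of 18 tested higher there and 4 higher in root (median -1.52). Of these 18, 1 was from the high N root list and 8 were from the high N leaf list. The zinc finger protein CONSTANS-LIKE 16 (Spo12372), of the family of the flowering regulator CONSTANS, had 700, 412 and 362 scaled FPKM in leaf and 1.87, 0.977 and 1.70 in root. A B-box protein of the same zinc finger class (Spo00341) had 50.9 ± 3.33 and 0.721 ± 0.184. A gene named LIGHT-DEPENDENT SHORT HYPOCOTYLS 6 (Spo05139) went the other way, at 23.6 ± 7.17 in root and 0.991 ± 0.255 in leaf. Likewise, the transcript named FD (Spo17450), a bZIP factor known in Arabidopsis as a partner of the flowering signal at the shoot apex, had 12.5, 12.4 and 14 in root and 0.398 to 0.731 in leaf.

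Several genes with a name and a large shift to leaf were neither of photosynthesis nor of the chloroplast. The gene named 21 kDa seed protein (Spo28094), a Kunitz-type protease inhibitor of cacao seeds, was the most abundant named gene in leaf, at 9311, 9284 and 9058 scaled FPKM, and had 0.344, 0.982 and 0.74 in root (log2 difference -12.43 ± 0.16, adjusted p = 1.6e-07). The leaf values of this gene differed by less than those of the photosystem genes, whose leaf libraries spread widely. A 23 kDa jasmonate-induced protein (Spo07285) had 1419 ± 327 in leaf and 1.11 ± 0.731 in root. A pathogenesis-related protein of the PR-1 type (Spo19866) had 780, 699 and 881 in leaf and no fragment in any root library, which makes it at least 2587-fold higher in leaf when 3 fragments are set as the limit in each root library. These limits cover counting error only. Its log2 difference of -9.62 depends on the added 1 and is not a bound.

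Of 43 tested defence proteins, 20 were higher in root and 12 in leaf (median 0.74, 24 from the high N root list), a split near that of all genes with a name. Single members lay far to either side. Defensin D2 (Spo11568), a small antimicrobial peptide, had 929, 1404 and 667 in leaf and 6.24, 13.3 and 8.01 in root. The defensin-like protein AX1 (Spo23290) had the opposite pattern, with 1071, 850 and 1081 in root and a single fragment over the 3 leaf libraries (log2 difference 9.90 ± 0.14, adjusted p = 1.6e-07). The ribosome-inactivating antiviral protein I (Spo21776) had 153 ± 42.5 in root and 0.499 ± 0.174 in leaf. The most abundant named gene in root was the pathogenesis-related protein STH-21 (Spo11439), at 2780, 3276 and 2508 in root and 290, 137 and 111 in leaf.

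**Figure D3:**
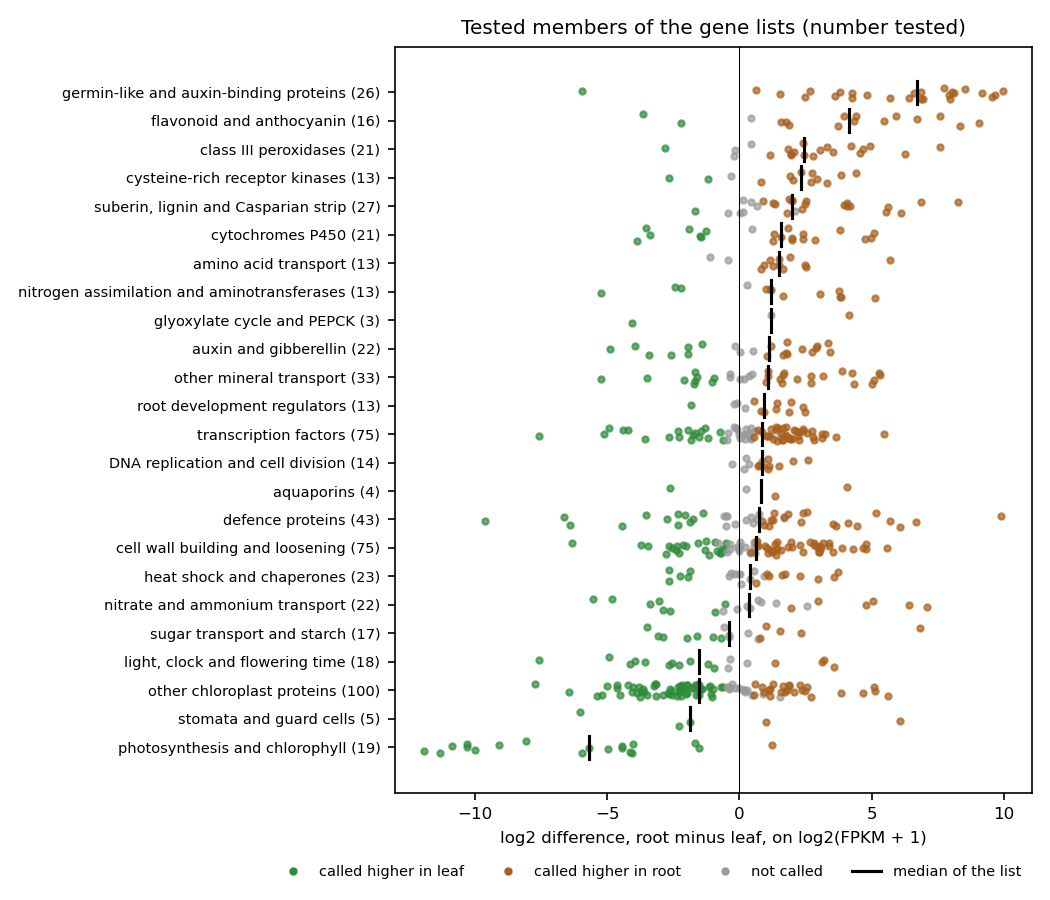
Log2 difference between root and leaf under high N for each tested member (point) of the 24 gene groups, ordered by the group median (black mark), with the number tested in brackets. The median was lowest for photosynthesis, at -5.69, and highest for germin-like and auxin-binding proteins, at 6.72, and most groups held members on both sides of 0.

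Germin-like and auxin-binding proteins formed the group furthest to the root side. Germin-like proteins are secreted cupins, and ABP19a and ABP20 are named after peach auxin-binding proteins of the same family. Of 26 tested, 25 were higher in root and 1 in leaf, with a median of 6.72 and 23 at least 4-fold higher in root, and all 26 came from the high N root list. The ABP19a gene Spo28140 had 1404, 1397 and 915 scaled FPKM in root and 0.332, 0.347 and 0 in leaf, a log2 difference of 9.97 ± 0.21 (adjusted p = 3.5e-07). The ABP20 gene Spo27024 varied little, at 848, 914 and 905 in root against 0.334, 0 and 0. The ABP19a genes Spo10206 and Spo10205 had 880 ± 209 and 1157 ± 269 in root. A further ABP19a gene, Spo25135, was the exception, with 221, 1193 and 583 in leaf and 8.17, 6.73 and 8.28 in root (log2 difference -5.95 ± 0.56). These genes carry the same names and may share reads, so the division of fragments among near-identical copies is uncertain.

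Flavonoid genes came next, with 13 of 16 tested higher in root, 2 in leaf and a median of 4.14, and 12 of the 16 were from the high N root list. The enzymes act in sequence: chalcone synthase makes the chalcone, chalcone isomerase closes it to a flavanone, and flavanone 3-dioxygenase hydroxylates that. A chalcone synthase (Spo27151) had 349, 394 and 502 in root and 0.576, 0.0502 and 0.261 in leaf, and chalcone synthase 2 (Spo25740) 217 ± 36.6 and 0.120 ± 0.0329. Chalcone isomerase (Spo18570) had 444, 636 and 508 in root and 5.93, 8.32 and 9.11 in leaf, a higher leaf level than that of both synthases. The naringenin dioxygenase (Spo26380) reached 583, 593 and 790 in root and 0.0414 to 0.319 in leaf (log2 difference 9.07 ± 0.17, adjusted p = 2.6e-07). A different chalcone synthase gene, Spo26611, was higher in leaf, at 5.74, 25.3 and 17.4 against 0.0268 to 0.509, and so was leucoanthocyanidin reductase (Spo08072), at 7.81 ± 2.93 against 0.840 ± 0.17. As with the germin-like genes, the division of reads among chalcone synthase copies is uncertain.

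Cell wall barriers were on the root side. Of 27 tested genes of suberin, lignin and the Casparian strip, 19 were higher in root and 1 in leaf (median 1.98, 11 from the high N root list). The CASP-like protein Ni6 (Spo18520), of the family that lays out the Casparian strip in Arabidopsis, had 277, 274 and 391 scaled FPKM in root and no fragment in leaf, at least 1465-fold higher by the limit of 3 fragments a library. A caffeoyl-CoA O-methyltransferase of the lignin pathway (Spo23090) had 111, 111 and 128 in root and none in leaf, at least 589-fold. An omega-hydroxypalmitate O-feruloyl transferase (Spo28069), named for suberin ester formation, was higher in leaf, at 36.9 ± 4.53 against 11.2 ± 3.62.

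Class III peroxidases followed the same direction, with 17 of 21 tested higher in root and 1 in leaf (median 2.44, 6 from the high N root list). Cationic peroxidase 1 (Spo00279) had 221, 178 and 230 in root and 0 to 4 fragments in each leaf library. Peroxidase 72 (Spo05332) had 82.8, 53.9 and 95.2 in root and none in leaf, at least 469-fold. Only peroxidase 52 (Spo11029) of those tested was called higher in leaf, at 23.0, 9.13 and 11.6 against 1.45, 2.15 and 0.106. Of the 26 members, 5 were below the filter.

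Root development regulators were higher in root for 9 of 13 tested and in leaf for 1, at modest sizes (median 0.94, 1 from the high N root list). Both MIZU-KUSSEI 1 genes with the largest differences, named after the Arabidopsis gene needed for root hydrotropism, were low: Spo08287 had 4.44, 5.42 and 3.97 in root and none in leaf, and Spo20727 had 7.76 ± 1.63 and 0.634 ± 0.237. Auxin response factor 19 (Spo20463), a transcription factor that promotes lateral roots in Arabidopsis, was higher in leaf, at 44.6, 29.8 and 23.1 against 8.18, 7.88 and 8.57. With a minimum of 5 FPKM only 3 of these regulators were called in root, among fewer tested.

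Of 26 genes of nitrate and ammonium transport, 22 were tested, with 6 higher in root, 8 in leaf and 8 not called (median 0.35, 7 from the high N root list). This is 27.3% in root and 36.4% in leaf, against 28.8% and 26.2% of all genes tested and 45.2% and 28.6% of those with a name. The leaf side held members of the NRT1/PTR family (NPF), a large family of nitrate, peptide and hormone transporters. NPF 6.2 (Spo05548), known in Arabidopsis for nitrate storage in the petiole, had 109, 82.1 and 66.8 scaled FPKM in leaf and 1.31, 0.60 and 0.653 in root, a log2 difference of -5.54 ± 0.23 (adjusted p = 3.3e-06). NPF 2.13 (Spo25744), known in Arabidopsis for remobilising nitrate from old leaves, had 37.7 ± 9.76 and 0.352 ± 0.0775. Both were leaf genes by level, although the study listed both as higher in root under high N than under low N. NPF 3.1 (Spo19480) had 10.6 ± 5.06 in leaf and 0.0436 ± 0.0556 in root, and NPF 2.11 (Spo20248) 10.8 ± 1.68 and 0.672 ± 0.646.

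The root side of this group held anion channels, an ammonium transporter and other NPF members. The S-type anion channel SLAH3 (Spo15968), a nitrate channel in Arabidopsis, had 120, 174 and 177 in root and 0.165, 0.0863 and 0.150 in leaf (log2 difference 7.10 ± 0.18, adjusted p = 5.7e-07), and SLAH1 (Spo21782) had 91.8 ± 21.3 and 0.0721 ± 0.0625. NPF 6.3 (Spo26413), the relative of the Arabidopsis dual-affinity nitrate transporter and sensor, had 100, 54.8 and 19.2 in root and 0.521 to 1.23 in leaf. NPF 5.10 (Spo17357) was steadier, at 10.2, 10.9 and 13.4 against 0.447 to 0.726, and NPF 5.8 (Spo07601) had 67.0 ± 24.2 against 17.2 ± 8.24. The ammonium transporter Spo24676 had 72.8, 43.8 and 179 in root and 1.08, 3.00 and 0.982 in leaf (log2 difference 5.05 ± 0.53, adjusted p = 0.00024). A second gene of that name, Spo24677, overlapped between the tissues, at 3.55, 4.16 and 33.1 in root and 2.13, 12.6 and 7.35 in leaf. NPF 1.2 (Spo01109 and Spo25690) and NPF 7.3 (Spo24247) also missed the threshold, with log2 differences of -0.63, 0.80 and 0.31. NPF 4.6 (Spo25782) was called higher in leaf at -0.56 (adjusted p = 0.029), and this call was lost on leaving out leaf library 1 or 3 or root library 1 or 3 (adjusted p = 0.052 to 0.086), and its difference was -0.03 without scaling.

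The high-affinity nitrate transporter 2.1 (Spo09968), which takes up nitrate from dilute solution, rested on a single library. It was at 0 in every leaf library and at 1.04, 0.161 and 83.7 scaled FPKM in the root libraries, from 33, 5 and 2461 fragments. The log2 difference of 2.55 ± 1.52 missed the threshold (adjusted p = 0.20), and without root library 3 the gene fell below the filter. In the low N root libraries, scaled with the low N leaf libraries, the same gene had 170, 225 and 134, so the third high N root library was nearer to these than the other high N root libraries were. That library also had the highest value of both ammonium transporters above, and the lowest of NPF 6.3, of the glutamine amidotransferase and of the carboxykinase described below. NPF 6.3 itself varied in the low N root libraries, at 22.8, 93.3 and 12.6. Chalcone synthase 2 (Spo25740) had 195, 197 and 259 in the high N root libraries and 38.1, 49.0 and 28.7 in the low N ones. That gene is named for its small adjusted p in the interaction over these same libraries. Its separation of the N supplies therefore says nothing of the third library, and why that library differed was not tested. Of the transporters 2.5, Spo03990 was below the filter with 39, 15 and 49 fragments in root and 2 in each leaf library, and Spo03988 had 2, 0 and 1 in root and none in leaf.

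Primers that the study designed for RT-qPCR are the sequences that the study ties to these gene identifiers, and they are printed, from 5′ to 3′ in lower case, for the nitrate transporters and the asparagine synthetase on which the contrast of N genes turns.
Spo09968 forward: aaagaagggtgaggttgctaaa
Spo09968 reverse: gtagccatagaggagcacaaag
Spo05548 forward: gtagcaatcgcagtaggaagag
Spo05548 reverse: cgagttgtccggtatagatgaag
Spo08792 forward: ggatcacaactccattccttct
Spo08792 reverse: ggtggacagtacccaaatagtc

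**Figure D4:**
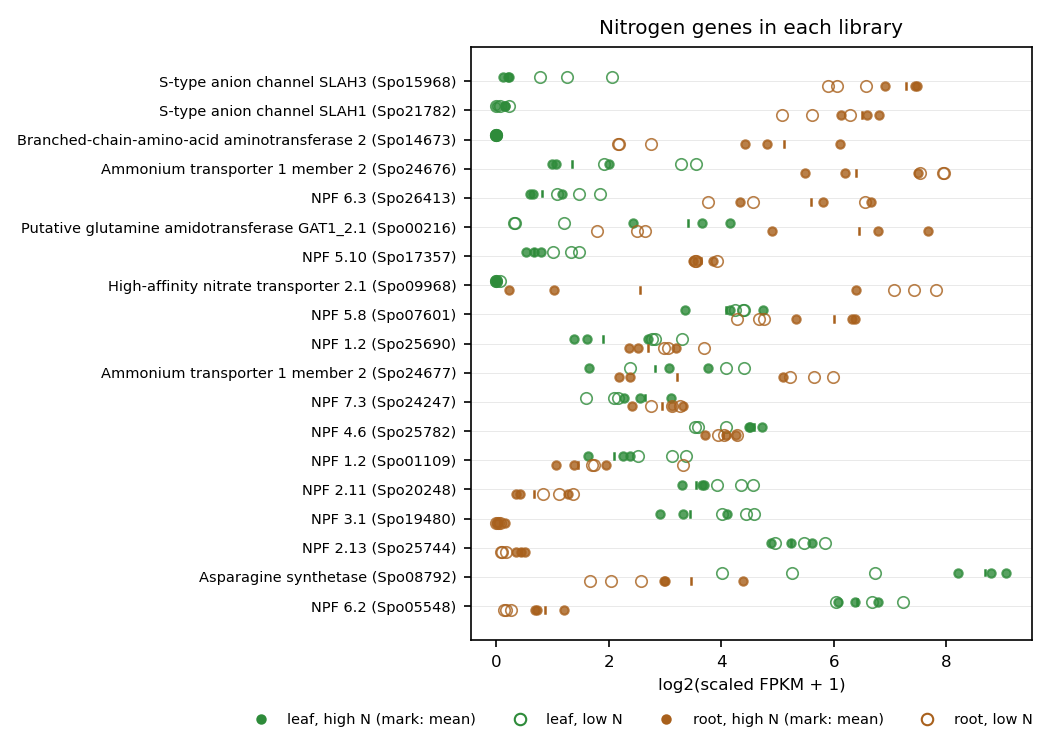
Scaled FPKM on a log2(FPKM + 1) axis of nitrate and ammonium transporters, anion channels and 3 genes of the N assimilation and aminotransferase group in each library. High N libraries are filled points with their mean as a mark, and low N libraries are open points, each treatment scaled among its own 6 libraries. The high-affinity nitrate transporter 2.1 (Spo09968) spreads from 0.161 to 83.7 scaled FPKM over the 3 high N root libraries, and NPF 6.2 and asparagine synthetase lie at the leaf end.

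Genes of N assimilation and aminotransferases, grouped with arginine decarboxylases and a nitrate regulatory protein, had 9 of 13 tested higher in root and 3 in leaf. The median was 1.2, and 7 were from the high N root list. The exception with the highest level was asparagine synthetase (Spo08792), which moves amide N from glutamine to asparagine, a transport form of N. It had 294, 445 and 538 scaled FPKM in leaf and 6.99, 19.8 and 6.92 in root, a log2 difference of -5.24 ± 0.42 (adjusted p = 6.4e-05). An arginine decarboxylase of polyamine synthesis (Spo18452) was also higher in leaf, at 14.8 ± 9.51 against 1.69 ± 0.886. On the root side, the branched-chain-amino-acid aminotransferase 2 (Spo14673) had 68.0, 26.9 and 20.6 in root and no fragment in leaf, at least 202-fold. The putative glutamine amidotransferase GAT1_2.1 (Spo00216) had 109, 205 and 28.7 in root and 16.7, 11.6 and 4.41 in leaf (log2 difference 3.04 ± 0.76, adjusted p = 0.013). An alanine glyoxylate aminotransferase homolog (Spo12360) had 92.6 ± 25.5 in root and 7.01 ± 6.66 in leaf.

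Amino acid transporters, grouped with glutamate receptor-like channels, had 11 of 13 tested higher in root and none in leaf (median 1.5, 8 from the high N root list). Glutamate receptor 2.6 (Spo15846) had 65.0, 55.4 and 36.8 in root and no fragment in leaf, at least 329-fold. The glutamate receptor 2.7 gene Spo23661 had 5.55 ± 0.623 in root and 0.138 ± 0.0864 in leaf, whereas Spo01837 of the same name had 2.84, 1.12 and 1.26 in root and 2.04 to 3.05 in leaf and was not called. A WAT1-related gene (Spo14333), of the family that holds amino acid exporters, had 23.6, 49.1 and 7.90 in root and 7.53, 0.628 and 3.44 in leaf, and its call (adjusted p = 0.033) was lost on leaving out leaf library 2 or 3 or root library 1 or 2 (adjusted p = 0.078 to 0.098).

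Other mineral transport was called higher in root for 18 of 33 tested genes and in leaf for 9 (median 1.07, 9 from the high N root list). This is 54.5% and 27.3%, against 45.2% and 28.6% of the tested genes with a name. A phosphate transporter of the PHT1 type (Spo19054) had 46.7, 37.4 and 33.7 in root and none in leaf, at least 306-fold, and the metal transporter Nramp5 (Spo17462), a manganese importer in rice, had 22.4, 36.2 and 68.5 and none, at least 344-fold. The sodium transporter HKT1 (Spo18318), known in Arabidopsis for withdrawing sodium from the xylem, was on the leaf side, at 54.4, 27.5 and 34.0 against 2 fragments over the 3 root libraries. Sulfate transporter 3.1 (Spo02354) had 17.7 ± 6.67 in leaf and 0.655 ± 0.604 in root. Of the 4 aquaporins, channels for water and small solutes of which 2 were from the high N root list, PIP2-1 (Spo02017) had 910 ± 230 in leaf and 144 ± 24.2 in root, while both NIP5-1 genes were higher in root, Spo17484 at 18.2, 19.8 and 11 with none in leaf and Spo21511 at 18.8 ± 3.12 against 6.70 ± 0.312.

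Sugar transport and starch genes had 5 of 17 tested higher in root and 7 in leaf (median -0.38), with 5 from the high N root list and 8 from the high N leaf list. This is 29.4% and 41.2%, against 45.2% and 28.6% of the tested genes with a name. SWEET7 (Spo11590), a sugar exporter of the SWEET family, had 367, 357 and 352 in root and 1.57, 2.97 and 2.03 in leaf, with very little spread among the root libraries. SWEET14 (Spo08933) was higher in leaf, at 46.8, 48.5 and 21.8 against 0.892, 1.12 and 8.80. Alpha-amylase (Spo04828), which degrades starch, had 152 ± 38.1 in leaf and 17.1 ± 2.84 in root. The 3 genes of the glyoxylate cycle, which converts acetyl units to organic acids, and of gluconeogenesis, 2 of them from the high N root list, differed in direction: isocitrate lyase (Spo13898) was higher in leaf, at 469, 40.5 and 218 against 6.54, 12.0 and 8.11, malate synthase (Spo16696) had 147 ± 86.8 in leaf and 310 ± 106 in root without passing the test (adjusted p = 0.061), and it passed when leaf library 1 was left out (adjusted p = 0.011) or without scaling (adjusted p = 0.016). Phosphoenolpyruvate carboxykinase (Spo20411), which starts gluconeogenesis from organic acids, had 120, 190 and 40.0 in root and 7.91, 2.88 and 3.98 in leaf (adjusted p = 0.001).

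Of 75 tested cell wall genes, 38 were higher in root and 22 in leaf (median 0.63, 7 from the high N root list), near the split of all genes with a name. The expansin-like protein B1 (Spo09736) had 448, 439 and 412 in root and 13.5, 2.28 and 14.7 in leaf, and expansin A1 (Spo18643), which loosens walls, had 28.3 ± 9.78 in root and a single fragment in leaf. A xyloglucan endotransglucosylase/hydrolase (Spo09254), which cuts and rejoins wall xyloglucan, had 69.0, 72.5 and 102 in leaf and none in root, at least 766-fold higher in leaf. Members with opposite tissue preference were thus found within this group.

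Auxin and gibberellin genes had 12 of 22 tested higher in root and 7 in leaf (median 1.12, 2 from the high N root list). This is 54.5% and 31.8%, against 45.2% and 28.6% of the tested genes with a name. Both GH3 amido synthetases, which conjugate auxin to amino acids, were root genes, Spo14689 at 30.2, 37.4 and 36.2 against 1.65 to 3.69 and Spo10865 at 31.5 ± 7.93 against 2.25 ± 1.12. Gibberellin 2-beta-dioxygenase 8 (Spo03697), which inactivates gibberellin, had 4.83, 6.51 and 6.07 in root and a single fragment in leaf. The gibberellin-responsive protein GAST1 (Spo11995) and the auxin-responsive SAUR21 (Spo14075) were leaf genes, at 67.7 ± 34.6 against 1.15 ± 0.385 and 27.0 ± 8.77 against 0.740 ± 0.0282. Of the homologs of ACC oxidase, Spo03777 had 360, 458 and 421 in root and a single fragment in leaf (log2 difference 8.67 ± 0.13), and Spo03782 had 4.02 ± 0.302 and 0.269 ± 0.215.

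Of 75 tested transcription factors, 39 were higher in root and 19 in leaf (median 0.86, 22 from the high N root list), also near the split of all genes with a name. Ethylene-responsive transcription factor 5 (Spo11939) had 35.3, 43.4 and 50.8 in root and none in leaf, at least 145-fold, and the stress-related zinc finger ZAT12 (Spo19102) 44.8 ± 4.15 in root and 2.80 ± 1.51 in leaf. Another ethylene-responsive factor (Spo21370) was higher in leaf, at 71.2, 40.3 and 51.9 against 0.299 to 0.840. Among genes of DNA replication and cell division, 9 of 14 tested were higher in root and none in leaf (median 0.85, 6 from the high N root list), led by the kinesin KIN-14P (Spo10400) at 7.83, 8.24 and 9.44 in root and 0.419 to 0.697 in leaf. The AUGMIN subunit 8 gene (Spo25062), named for a subunit of the augmin complex of microtubules, had 34.1 ± 7.29 and 7.95 ± 3.00.

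Cysteine-rich receptor-like kinases, cell surface receptors, had 10 of 13 tested higher in root and 2 in leaf (median 2.32, 9 from the high N root list). Spo28390 had 24.5, 14.6 and 22.9 in root and none in leaf, at least 82.4-fold, while Spo10806 had 4.11, 6.09 and 6.96 in leaf and at most 0.0654 in root. Cytochromes P450 had 13 of 21 higher in root and 7 in leaf (median 1.57, 10 from the high N root list), with Spo09185 at 55.0, 64.0 and 70.6 in root and 0.795 to 1.02 in leaf. The brassinosteroid gene 90A1 (Spo01076) was higher in leaf, at 30.8 ± 6.60 against 1.74 ± 0.359. Heat shock genes and chaperones had 9 of 23 higher in root and 5 in leaf (median 0.41, 3 from the high N root list). This is 39.1% and 21.7%, both below the 45.2% and 28.6% of the tested genes with a name. The heat shock cognate 70 kDa protein 2 (Spo17157) had 47.3, 44.4 and 40.2 in root and 1.36 to 3.6 in leaf, a log2 difference of 3.71, and one of 0.58 under low N, a change that did not pass the interaction test (adjusted p = 0.69).

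The most abundant root genes with a name included protease inhibitors and a jasmonate-related gene. The jasmonate-induced protein homolog (Spo10692) had 2816, 2005 and 1221 scaled FPKM in root and 0.694 to 1.85 in leaf. The proteinase inhibitor Spo02312 had 2523, 3078 and 1341 in root and 2.28, 4.63 and 8.94 in leaf, and Spo02311, of the same name, 1135, 1583 and 350 against 0.589 to 0.934. In each of these 3 genes the third root library was the lowest. The F-box/kelch-repeat protein Spo05993 was abundant in both tissues, at 1704, 2082 and 593 in root and 813, 743 and 649 in leaf, and missed the threshold (adjusted p = 0.18).

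Some strongly expressed genes with a name had nearly the same level in both tissues and were chosen for that. The HMG1/2-like protein (Spo18386), a DNA-bending chromatin protein, had 1090, 1068 and 1110 in root and 1042, 1184 and 1142 in leaf. The magnesium transporter MRS2-3 (Spo19817) had 81.5 ± 7.59 and 80.8 ± 2.47, and the calmodulin-binding protein 25 (Spo21115) 60.5 ± 13.8 and 62.6 ± 6.27. This near equality rests on the scaling: on the FPKM as deposited the 3 genes were 0.51, 0.56 and 0.48 higher in root on the log2 scale, and each was then called (adjusted p = 0.015, 0.011 and 0.042). With quantile normalization Spo18386 was 2.00 higher in root (adjusted p = 5.4e-05).

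The tissue difference was then set beside that under low N, where 8412 of 18408 genes (45.7%) were called. Of 3517 genes called at 4-fold under high N that were also tested under low N, 3411 were called in the same direction there. The difference itself was tested over all 12 libraries as an interaction of tissue and N, and 24 of 18411 genes (0.13%) passed, of which 23 had a root minus leaf difference further towards root under high N and 1 further towards leaf. The 24 genes were all in the study's N-responsive lists, 19 of them in that for high N root. At an unadjusted p below 0.05 there were 1317. Among the groups, 5 of the called genes were in flavonoid synthesis, 4 in germin-like and auxin-binding proteins and 2 in class III peroxidases. The count depended on single libraries. With limma it was 0 without high N leaf library 1 or 2, high N root library 1 or low N leaf library 2 (1242, 1266, 1088 and 1245 genes at an unadjusted p below 0.05), 1, 4, 10 and 13 without high N root library 2, low N root library 2, high N leaf library 3 and low N leaf library 3, and 43 without low N root library 1. A pseudocount of 0.1 left 3 genes and a voom fit on worked-back fragments 0.

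**Figure D5:**
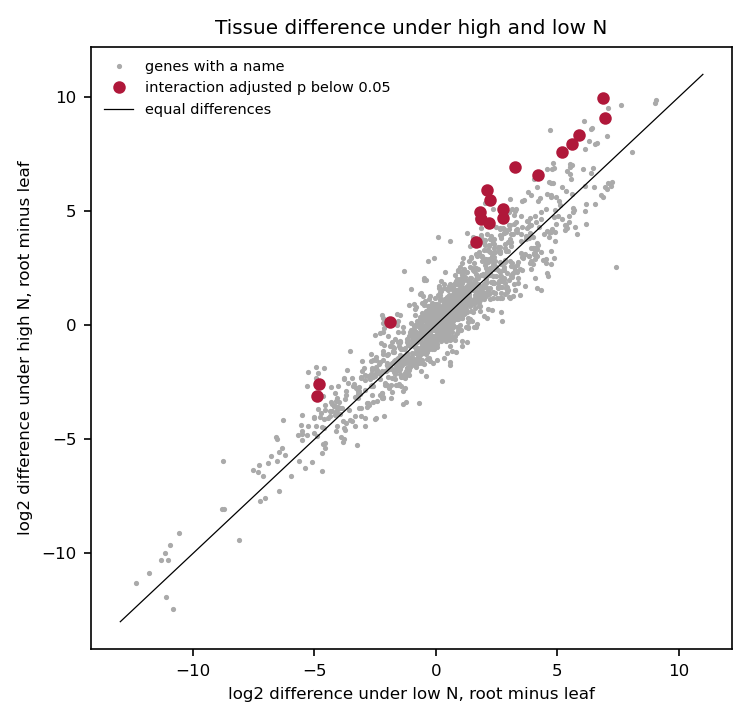
Log2 difference between root and leaf under high N against that under low N for the 1441 genes with a name tested under both, with the line of equal differences. The 18 genes drawn in red passed the interaction test, and all of them lie above the line.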

How the data were processed

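RNA-seq libraries of leaf and root under high N and low N (3 replicates each, 12 in all) were assigned to groups by their titles. Some tissue or treatment entries in the sample records of high N root, low N leaf and low N root differ from the titles. The authors deposited FPKM for 25495 genes, with no further scaling between libraries. Per the study's methods, read pairs were aligned to the SpinachBase genome with TopHat and Bowtie and counted with HTSeq, while the submitters' processing notes name fastp, HISAT2 2.1.0, featureCounts and DESeq2. Which of these made the table was not settled, and library strandedness is not given in the sources used here, so overlapping and antisense genes cannot be told apart. Columns of other samples in the table numbered 0. Columns of fold changes and p-values in the study's lists were not used.

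FPKM were scaled by the median of ratios, log2(FPKM + 1) was taken, and genes with a mean deposited FPKM of at least 1 over the 6 high N libraries were fitted with limma 3.58.1 in R 4.3.3 (eBayes with a variance trend, Benjamini-Hochberg adjustment over all genes tested). Root against leaf under low N, and the interaction over 12 libraries, were fitted likewise. Whole fragments were worked back from the FPKM of 23015 genes, and 2480 were 0 in every library. They gave the depths and a limit of 3 fragments, and a voom fit. The limma fit and the working back of fragments were tried on simulated data, but the voom fit was not. Equal numbers of genes were raised and lowered in the simulation of the limma fit, so it cannot test the scaling between tissues. Exact permutation of 3 against 3 libraries cannot give a two-sided p below 0.1, so single genes were read from the fit. Replicates are separate samples, and p-values measure the spread between them.

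Names came from the study's lists, because no identifier could be matched to the RefSeq gene table. Genes and lists were chosen with earlier results of these data known. Named are the 10 genes with a name most shifted to each tissue without overlap, up to 2 called members of each list in each direction, genes the study's text names, the 2 extremes of the table on each side, the 5 most abundant named genes of each tissue, 5 with a mean of at least 50 FPKM and the smallest difference, and the 5 with the smallest adjusted p in the interaction. Alternatives were no scaling, quantile normalization, a pseudocount of 0.1, no filter, a minimum of 5 FPKM, a fit of all 4 groups, a constant prior variance, a replicate block, voom on fragments and each library left out. For the interaction, voom was added after seeing the data. Tables were handled in Python 3.11.15 with NumPy 2.4.6 and pandas 2.3.3, and plots drawn with matplotlib 3.10.9.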

Additional observations from a re-analysis of the deposited data

Results flagged for a closer look

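The root minus leaf difference of 7 named genes lay further towards root under high N than under low N by the interaction test over all 12 libraries (limma). Chalcone isomerase (Spo18570) had the largest interaction, 3.83 on the log2 scale (adjusted p = 0.022), with tissue differences of 5.92 under high N and 2.09 under low N. Chalcone synthase 2 (Spo25740) had an interaction of 2.41, with 7.59 and 5.21, the chalcone synthase Spo27151 one of 2.44, with 8.33 and 5.92, and the naringenin dioxygenase (Spo26380) one of 2.12, with 9.07 and 6.97. The auxin-binding protein ABP19a gene Spo28140 had 3.10, with 9.97 and 6.90. The RING-H2 finger protein ATL11 (Spo19365), of a family of ubiquitin ligases, had 2.37, with 5.11 and 2.78, and no fragment in the high N leaf libraries. The ACC oxidase homolog Spo03782 had 1.91 and a difference of 1.99 under high N, and was below the filter under low N. Apart from chalcone isomerase, these genes were close to 0 in leaf under both N supplies. Their leaf means were at most 0.296 scaled FPKM under high N and 0.459 under low N. For them the interaction therefore followed the change of the root level with N. The study lists all 7 as higher in root under high N, so their direction is not independent of that choice, and the calls were not stable. With voom, or without high N leaf library 1 or 2, high N root library 1 or low N leaf library 2, 0 of the 7 were called, and 1 was called with a pseudocount of 0.1 or without high N root library 2. The counts were 3 without low N root library 2, 4 without high N leaf library 3 or low N leaf library 3, and 6 or 7 in the other alternatives except that with the replicate numbers as a block, which left 1.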

How the results depend on the processing

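The number of genes called between root and leaf stayed within 1.5 times of 10044 in every alternative run, from 7691 with a minimum of 5 FPKM to 12337 without scaling, and from 8516 to 9745 on leaving out a library. At 4-fold it ran from 2950 to 4664. Without scaling the share of called genes higher in root was 74.7%, and between 50.1 and 53.2% in the other alternatives. The interaction count of 24 became 3 with a pseudocount of 0.1, 1 with a replicate block and 0 with voom (947 genes at an unadjusted p below 0.05), and ran from 0 to 43 over left-out libraries. Same-numbered root and leaf libraries under high N deviated together with correlations of 0.0931 to 0.396, and not every library correlated best with its own number. Under low N the correlations were 0.27, 0.0921 and 0.296. Each library there correlated best with its own number, but leaf library 2 was nearly tied, at 0.0877 with root library 3. All same-numbered correlations were positive, although a pair under each N supply was below 0.1. Most others were negative, but libraries were centred on their group means, which pushes the others below 0 once these are positive. The negative values therefore add nothing on pairing. The sources do not state the pairing, so the main fits did not pair the numbers, and a shared plant is not excluded. The replicate block called 9409 genes. Of 1993 recomputed values for the 134 named genes, 1954 kept direction and side of the threshold, and 15 genes changed in at least 1 alternative. The direction turned for Spo18386, to 0.51 without scaling and 2.00 with quantile normalization, and for Spo21115, to 0.48 without scaling. Of 720 list counts, 694 stayed within 1.5 times. Depth limits weak genes: 3 fragments on a 1 kb gene are 0.164 to 0.192 FPKM.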
